A study of Mus musculus with 2 samples.

Results

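miR-9 and miR-9* (mmu-miR-9 and mmu-miR-9*) are the 2 mature strands cut from the same hairpins, miR-9 from the 5′ arm and miR-9* from the 3′ arm. Each was found as the tag, a distinct sequence with its number of reads, whose young and old counts equal those in the study's list of known miRNAs, and a single tag held both counts for each strand. Every other tag beginning with the same 18 nucleotides as this counted tag was added, which gave 151 tags for miR-9 and 88 for miR-9*, 239 of 789591 tags in all. Small RNAs of whole brain from male mice of the inbred strain C57BL/6J had been sequenced in 1 young library (5 months) and 1 old library (24 to 25 months). Each library combined 2 mice. The young library held 4523267 reads and the old library 6658732. With 1 library per age there is no replicate check, so tests on the reads compare the libraries and not the ages. Intervals are 95% intervals and cover counting error only, not the spread between mice. They treat reads as independent molecules, which reads copied by PCR are not.

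miRNAs are cut from a hairpin as a duplex, of which usually one strand is loaded into an Argonaute protein and the other is degraded, and bases 2 to 8 of the loaded strand, the seed, pair with target mRNAs. miR-9 is enriched in the brain and is expressed in neural progenitors and neurons. Its known targets include the progenitor transcription factors Nr2e1 and Hes1 and the repressor Rest, while miR-9* targets the Rest cofactor Rcor1 and the chromatin subunit Actl6a (BAF53a), so both strands are used in neural development.

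The mature sequences, from RefSeq (GRCm38.p6), are shown with the seed in capitals, because the strands have different seeds.
mmu-miR-9-5p (miR-9): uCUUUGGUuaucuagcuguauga
mmu-miR-9-3p (miR-9*): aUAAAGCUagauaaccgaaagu
Both members matched the reference table. No other mature mouse miRNA of the table has either seed.

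The counted tags each match the genome (NCBIM37, called mm9) perfectly at 3 places, the hairpins Mir9-1, Mir9-2 and Mir9-3, which are shown with both strands in capitals because most reads cannot be assigned to one of them.
Mir9-1: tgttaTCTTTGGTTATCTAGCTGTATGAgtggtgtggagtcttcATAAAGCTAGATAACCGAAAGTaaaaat
Mir9-2: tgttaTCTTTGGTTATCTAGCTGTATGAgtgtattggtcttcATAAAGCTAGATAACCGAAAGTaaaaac
Mir9-3: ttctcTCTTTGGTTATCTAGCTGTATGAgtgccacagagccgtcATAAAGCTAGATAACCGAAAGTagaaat
All 3 lie on the plus strand. The stretch of Mir9-1 is chr3:88019530-88019601 and lies in an intron of the lincRNA Gm3764. The stretch of Mir9-2 is chr13:83878421-83878490 and lies in an exon of the lincRNA C130071C03Rik. The stretch of Mir9-3 is chr7:86650160-86650231 and lies in an intron of the lincRNA AI854517. The loops and some of the flanking bases differ between the hairpins, while the strands are the same.

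The ends that the results turn on are shown next, with the bases that do not match the hairpin in capitals. The first 4 are miR-9 tags and the other 3 are miR-9* tags.
miR-9, counted tag: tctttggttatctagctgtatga
miR-9, 21 nucleotides: tctttggttatctagctgtat
miR-9, added T: tctttggttatctagctgtatgT
miR-9, added run of A: tctttggttatctagctgtatgaAA
miR-9*, counted tag: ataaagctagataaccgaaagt
miR-9*, next templated base: ataaagctagataaccgaaagta
miR-9*, added T: ataaagctagataaccgaaagtaT

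The question was whether the strands of one precursor differed in the same way between the young and the old brain. They differed in opposite directions when scaled by total reads. mmu-miR-9 had 19900 reads in the young and 19900 in the old library, an equality of sums over different tags, which is 4400 reads per 1000000 reads of the library (RPM) in the young and 2989 RPM in the old library. miR-9 was therefore 0.679-fold in the old library (95% interval 0.666 to 0.693), a log2 ratio (old over young) of -0.56 (-0.59 to -0.53). mmu-miR-9* had 1786 young and 6166 old reads, or 395 and 926 RPM. miR-9* was 2.35-fold higher in the old library (2.22 to 2.47), a log2 ratio of 1.23 (1.15 to 1.31; two-sided p = 3.24e-269 in the random sampling model of DEGseq and 9.21e-253 in an exact binomial test). A start is the first 18 nucleotides of a mature sequence. Among the starts of the reference table, miR-9 ranked 20 by reads in both libraries, and miR-9* moved from rank 68 to rank 44. The table lacks some miRNAs, such as miR-124, so these are not ranks among all miRNAs. The counted tags alone gave the same directions. The miR-9 tag had 6673 young and 7361 old reads with a log2 ratio of -0.42 (-0.46 to -0.37; two-sided p = 1.07e-66 in the random sampling model and 8.67e-65 in the exact binomial test). The miR-9* tag had 1144 and 3911 reads with a log2 ratio of 1.22 (1.12 to 1.31; p = 1.99e-168 in the model and 3.63e-158 in the exact test).

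**Figure D1:**
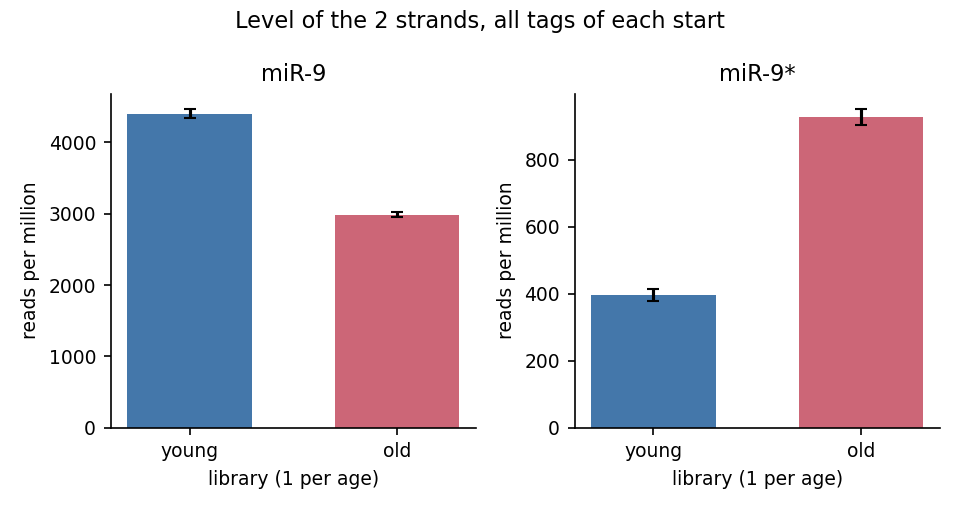
RPM (vertical axes, different ranges) of miR-9 and miR-9* in the young and the old library, 1 bar per library, with exact Poisson 95% intervals as error bars. miR-9 goes from 4400 to 2989 and miR-9* from 395 to 926 when scaled by total reads; with TMM factors or size factors the direction of miR-9 is reversed.

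The direction of miR-9 depended on the scaling and that of miR-9* did not. The log2 ratio of miR-9 was 0.10 when scaled with edgeR's TMM and 0.088 under the size factors of DESeq2, against 1.89 and 1.88 for miR-9*. These factors moved every log2 ratio by 0.66 and 0.65. Reads on let-7 and miR-98 starts went from 34.1% of the young library to 49.0% of the old one, and without them in the depth miR-9 was at -0.19 and miR-9* at 1.60. Log2 ratios fell by 0.35 per 10 percentage points of GC content over starts with at least 100 reads in both libraries. The counted tags of miR-9 and miR-9* have a similar GC content of 34.8% and 31.8%, below the median of 45.8% for those starts. A linear GC correction gave -0.99 for miR-9 and 0.69 for miR-9*. With an assumed biological coefficient of variation, since none could be estimated, edgeR's exact test gave p = 0.00662, 0.175 and 0.504 for miR-9 at 0.1, 0.2 and 0.4, and p = 5.14e-09, 0.00325 and 0.146 for miR-9*.

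Against the starts of the reference table, miR-9 lay near the middle and miR-9* near the top. Of 364 starts with at least 10 reads in a library, 8 were at least 2-fold higher in the old library (2.2%), miR-9* among them, and 114 were at least 2-fold lower (31.3%), miR-9 not among them. miR-9* was under 2-fold with the GC correction, and also when every read of its arm that matched a hairpin perfectly was counted, whatever its first base (3268 young and 9130 old reads, log2 ratio 0.92). With TMM factors the shares were 10.2% and 8.79%, and with size factors 9.89% and 9.07%. Some starts passed the limit of 10 reads only in the library where they were higher, such as miR-1191a and miR-149-5p (11 and 2 reads). The shares therefore follow in part from this limit. By total reads they were 1.93% and 26.6% of starts with at least 100 reads in a library. The median log2 ratio over the 364 starts was -0.65 by total reads, and 80.8% of them were lower in the old library, against a median of 0.017 and 49.7% with TMM factors. miR-9 was therefore slightly above the median, with 161 starts above it. Only 2 starts lay above miR-9*, miR-10b-5p (63 young and 319 old reads) and miR-1191a (3 and 11 reads), which were named after their values had been seen.

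**Figure D2:**
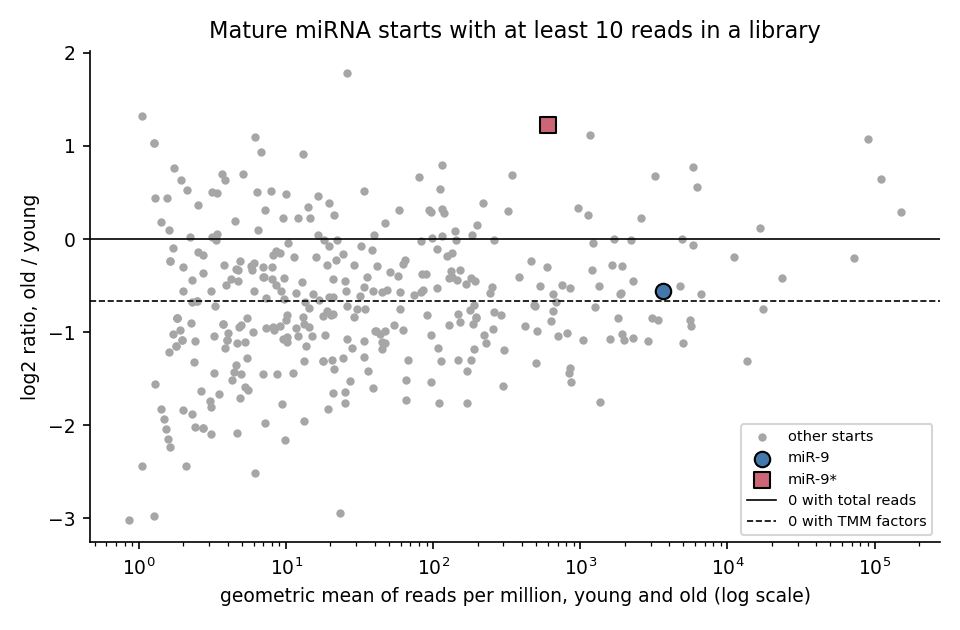
Log2 ratio (old over young, scaled by total reads) against the geometric mean of RPM on a log axis for the 364 mature miRNA starts with at least 10 reads in a library, each grey point a start. miR-9* (square) lies at 1.23 and miR-9 (circle) at -0.56, above the dashed line that would be 0 with TMM factors.

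Among starts with at least 100 reads in both libraries, the nearest in log2 ratio to miR-9 were miR-434-5p (213 young and 213 old reads), miR-212-3p (139 and 139 reads) and miR-300-3p (455 and 453 reads), with a GC content of 50 to 54.5%. Nearest to miR-9* were miR-26b-5p (3576 and 11432 reads, log2 ratio 1.12), let-7f-5p (279962 and 868430 reads, 1.08) and miR-98-5p (396 and 1015 reads, 0.80). These neighbours of miR-9* had a GC content of 31.8 to 33.3%, close to that of miR-9*. The likeness rests on 1 ratio between 2 libraries.

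The ratio of the strands does not depend on the scaling, because both were counted in the same library. miR-9* had 0.0897 reads per read of miR-9 in the young library and 0.310 in the old library. Of the reads on both strands, miR-9* made up 8.24% in the young library (Wilson interval 7.88 to 8.61%) and 23.7% in the old library (23.1 to 24.2%). miR-9 was the more abundant strand in both libraries, at 11.1 and 3.23 reads per read of miR-9*. The ratio was 3.45-fold higher in the old library (3.26 to 3.65), a log2 change of 1.79 (SE 0.041; 1.71 to 1.87). With the counted tags alone, the ratio went from 0.171 to 0.531, a log2 change of 1.63 (1.53 to 1.74; Fisher's exact test on the reads, two-sided p = 1.49e-220). With every read that matched a hairpin perfectly, whatever its first base, the ratio went from 0.175 to 0.479, a 2.74-fold rise (2.62 to 2.86). This count includes the reads of miR-9* that start 1 nucleotide later.

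The same ratio was computed for 104 hairpins, or groups with the same mature strands, that had at least 10 reads in a library on each strand. The less abundant strand was at least 2-fold higher relative to its partner in the old library in 12 of them (11.5%), miR-9* included, and at least 2-fold lower in 16 (15.4%). These shares follow in part from the limit of 10 reads. Some pairs passed it on this strand only in the library where the strand was higher, such as Mir574 and Mir410 (13 and 5 reads). The median log2 change was -0.13, against 1.79 for miR-9* over miR-9. Those above it, named after their values had been seen, were Mir34a (19 young and 60 old reads on the less abundant strand), Mir154 (40 and 69) and Mir574 (4 and 12). Among the 26 hairpins with at least 100 reads on each strand in both libraries, the median was -0.06 and the miR-9 hairpins had the highest value. These places hold for strands counted at their mature start alone, which leaves out the later start of miR-9*. With every perfectly matching read the log2 change of miR-9* over miR-9 was 1.45, and the other hairpins were not counted in that way.

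**Figure D3:**
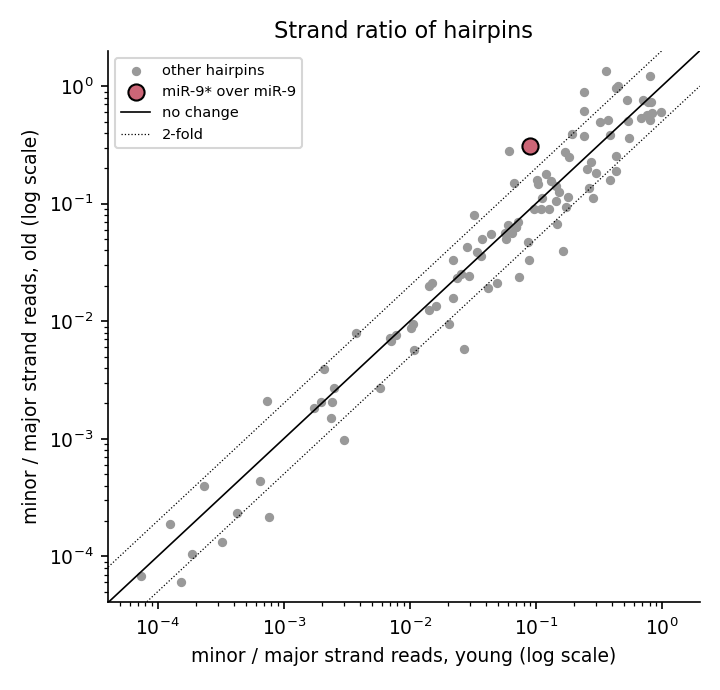
Reads of the less abundant strand divided by reads of the more abundant strand in the young (horizontal) and the old library (vertical), both on log axes, 1 point for each of 104 hairpins or hairpin groups. The miR-9 hairpins (large point) lie at 0.0897 and 0.310, outside the dotted lines that mark a 2-fold change.

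The tags of miR-9 had many 3′ ends. In the young library 33.5% of miR-9 reads (32.9 to 34.2%) were the counted tag of 23 nucleotides, and 36.99% were in the old library (36.3 to 37.7%). The 21-nucleotide tag took 27.6% and 26.7%, and the 22-nucleotide tag 15.8% and 16.5%. Reads shorter than the counted tag made up 55.9% of miR-9 in the young (55.2 to 56.6%) and 52.8% in the old library (52.1 to 53.5%). Reads longer than the counted tag were also a smaller share in the old library, at 3.09% against 4.23%. The mean length was 21.98 nucleotides in the young and 22.07 in the old library. This difference of 0.086 compares with a median of 0.017 over 173 starts, of which 36 lay above miR-9. The 20-nucleotide tag was further reduced than the strand as a whole, with 1623 young and 1240 old reads, a log2 ratio of -0.95 (-1.05 to -0.84).

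The 9 named tags of miR-9, the 5 with the most reads and those with at least 1% of the strand in a library, held 95.9% of its young and 96.4% of its old reads. Scaled by total reads, all 9 were lower in the old library, with log2 ratios from -1.41 to -0.34, while with TMM factors 4 were higher and 5 lower. The least reduced was the 22-nucleotide end with an added T, with 1031 young and 1195 old reads (-0.34, -0.47 to -0.22). The tag with a run of A added to the counted tag, with 200 and 111 reads (-1.41, -1.76 to -1.07), reached 1% of miR-9 in the young library alone (1.01% and 0.558%), so its low ratio follows in part from how it was chosen. The other 8 reached 1% in both libraries and ran from -1.12 to -0.34.

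Most miR-9* reads had 1 of 2 ends. The counted tag of 22 nucleotides took 64.1% of miR-9* reads in the young (61.8 to 66.2%) and 63.4% in the old library (62.2 to 64.6%). The tag with the next base of the hairpin took 23.0% (21.1 to 25.0%) and 22.7% (21.7 to 23.8%). Neither share differed beyond its intervals, and the log2 ratios of both tags were nearly equal, at 1.22 and 1.21. Reads shorter than the counted tag made up 2.80% in the young and 2.08% in the old library, few beside miR-9. The 6 named tags held 94.9% of the young reads, and all 6 were higher in the old library, also with TMM factors and size factors, with log2 ratios from 0.75 (0.14 to 1.41), for the 21-nucleotide tag with 31 and 77 reads, to 1.93 (1.39 to 2.52), for the 24-nucleotide tag with an added T and 32 and 180 reads.

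**Figure D4:**
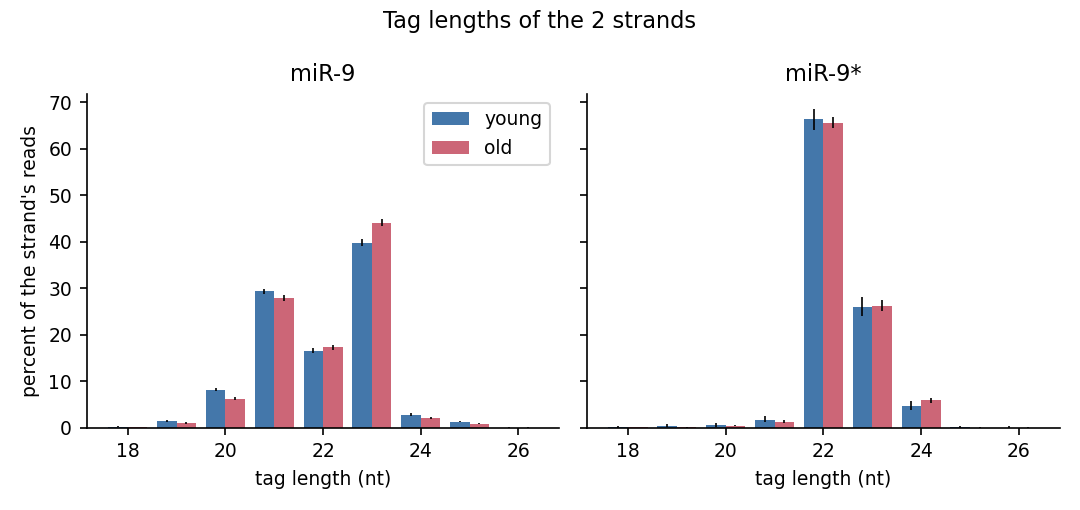
Percent of each strand's reads by tag length in nucleotides, young and old library side by side, with Wilson 95% intervals. miR-9 has peaks at 21 and 23 nucleotides, and miR-9* has most reads at 22, 66.3% in the young and 65.7% in the old library.

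Both strands had ends with bases that are not in the hairpin, most often a T. Such bases are called added here. Whether they were added, or are substitutions or read errors, was not tested. Ends with 1 added T made up 6.10% of miR-9 reads in the young (5.78 to 6.44%) and 6.78% in the old library (6.44 to 7.14%). For miR-9* they made up 3.70% (2.92 to 4.67%) and 5.35% (4.82 to 5.94%). Ends with 1 added A were 3.25% and 2.61% of miR-9, and 0.336% and 0.697% of miR-9*. Ends that follow the hairpin made up 87.0% and 87.7% of miR-9 and 92.0% and 90.4% of miR-9*. Over 173 starts the median difference in this share, old minus young, was -1.02 percentage points. It was 0.75 for miR-9, with 34 starts above it, and -1.63 for miR-9*, with 103 above it. Ends with an undetermined base, which do not count as following the hairpin, occurred in the young library alone (0.422% of miR-9 and 0.336% of miR-9*).

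The 5′ end of miR-9* was spread over 2 positions. Tags that begin 1 nucleotide after the counted tag, with the bases that are then in the seed position in capitals, are shown because this start has a different seed.
miR-9*, start 1 nucleotide later: tAAAGCTAgataaccgaaagta
This seed is shared with no mature mouse miRNA of the table. Tags with this start had 1939 young and 4379 old reads, a log2 ratio of 0.62 (0.54 to 0.70). It was higher in the old library too, by 1.53-fold, but less than the counted start. Counted over all ends, the later start had more reads than the counted start in the young library (1939 against 1786), while among perfectly matching reads it had slightly fewer (1614 against 1644), and in the old library it had fewer by both counts. Of the reads at the 2 starts, 47.9% were at the counted start in the young library (46.3 to 49.6%) and 58.5% in the old library (57.5 to 59.4%; Fisher's exact test on the reads, two-sided p = 1.44e-28). The same share was computed for 173 starts, of which 155 had a mean share above 90% and so little room to differ. Among the 18 with a mean share of 10 to 90%, miR-9* included, the share differed between the libraries by a median of 2.07 percentage points in size and from -9.56, for miR-140-3p, to 10.5, for miR-9*. miR-203-3p, with 100 young and 146 old reads at its first start, was close to miR-9* at 9.42, and whether miR-9* differed from these starts was not tested. This comparison over starts was added after the values of miR-9* had been seen. The later start also had more added T, 13.5% of its reads in the young and 16.7% in the old library.

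On the arm of miR-9 the start was more uniform. Of the reads that matched a hairpin perfectly, 92.7% in the young (92.3 to 93.05%) and 91.6% in the old library (91.2 to 92.0%) began at the counted start of miR-9. Tags that start 1 nucleotide later had 640 young and 768 old reads, with a log2 ratio of -0.29 (-0.45 to -0.14), a smaller reduction than at the counted start.

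**Figure D5:**
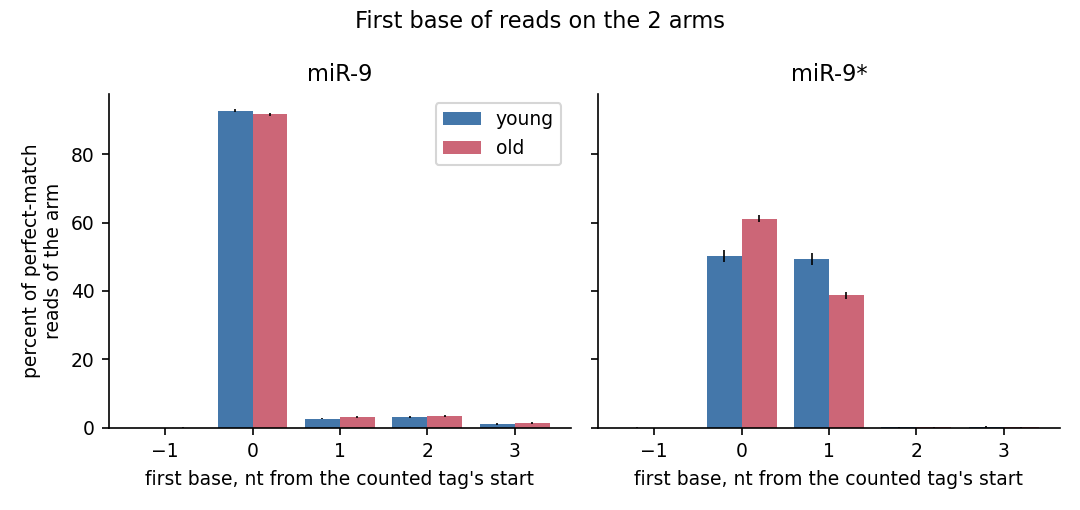
Percent of the perfectly matching reads of each arm by the position of their first base, counted in nucleotides from the start of the counted tag, with Wilson 95% intervals. Position 0 holds 92.7% and 91.6% of miR-9, while miR-9* is split between positions 0 and 1, with 50.3% of young and 61.1% of old reads at 0.

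Few reads could be assigned to a single hairpin. Tags of miR-9* that extend into the flank shared by Mir9-1 and Mir9-2 alone had 320 young and 771 old reads, 9.79% and 8.44% of the perfectly matching reads of the arm. Those that match Mir9-3 alone had 0 and 7 reads. miR-9 tags that match Mir9-3 alone had 5 and 11 reads. The shares of the 3 hairpins among the other reads could not be told apart. On the opposite strand of the hairpins there were 2 young and 0 old reads.

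Reads that differ from the first 18 nucleotides of a strand by 1 base are not counted above. Such reads amounted to 1712 young and 2291 old reads for miR-9 and 176 and 662 for miR-9*. Differences are written with the base of the counted tag first and positions counted from its 5′ end. Frequent ones for miR-9 were C2T (238 young and 255 old reads) and T8G (112 and 358 reads). For miR-9* they included A18T (12 and 80 reads) and C16T (22 and 65 reads). Relative to the 1786 young and 6166 old reads of miR-9*, A18T went from 0.672% to 1.30%, while C16T went from 1.23% to 1.05%. The source of these differences was not tested.

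Markers of cell types in the brain were counted by the same rule, since in whole brain fewer cells of a type and less RNA per cell cannot be told apart. Of the neuron and brain list, 8 of 9 miRNAs could be counted. By total reads 7 of them were lower and 1 higher in the old library, while 80.8% of the 364 starts were lower. With TMM factors 5 were lower and 3 higher, while 49.7% of the starts were lower. By total reads the intervals of miR-137-3p (-0.12 to 0.095) and of the higher one, miR-153-3p (-0.08 to 0.44), hold 0. The 8 summed to 32273 and 18847 RPM (log2 ratio -0.78, or -0.11 with TMM factors). The most abundant was miR-128-3p, a miRNA of neurons, with 103163 young and 89971 old reads. The list also holds miR-219 and miR-338, which are miRNAs of oligodendrocytes. Of the list 0 were at least 2-fold higher and 1 at least 2-fold lower, against 2.2% and 31.3% of all starts, and the latter was miR-219a-5p (log2 ratio -1.04). At a scaling by total reads miR-9 was lower, as were 7 of the 8 counted and 80.8% of the 364 starts, while miR-9* was not.

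The microglia and blood list had reads for 4 of 4, with a sum of 287 and 178 RPM and a log2 ratio of -0.69 by total reads, or -0.029 with TMM factors. By total reads 3 were lower and 1 higher, while 80.8% of the 364 starts were lower. With TMM factors the counts were 2 and 2, while 49.7% of the starts were lower. By total reads 0 were at least 2-fold higher and 1 at least 2-fold lower, against 2.2% and 31.3% of those starts. The most abundant was miR-451a of red blood cells, with 1155 and 901 reads (log2 ratio -0.92, -1.04 to -0.79), and the higher one was miR-142a-5p, with 127 and 268 reads (0.52, 0.21 to 0.84). miR-150 was counted as miR-150-3p, its only arm in the reference table, so its other arm was not counted. This arm (11 and 8 reads, log2 ratio -1.02, -2.54 to 0.43) was the one at least 2-fold lower. miR-223-3p had 4 and 5 reads (-0.24, -2.45 to 2.10), and both intervals hold 0. The muscle list summed to 1231 and 1196 RPM, nearly all miR-206-3p. For miR-1 the table held only the arm miR-1a-1-5p (1 and 1 read), so its other arm was not counted. For miR-206-3p the log2 ratio was -0.04 by total reads, with an interval that holds 0 (-0.09 to 0.0074), and the list was at 0.62 with TMM factors, which add 0.66 to every ratio. The vascular, choroid plexus and neuroendocrine lists were each counted through 1 member. miR-126a-3p of vascular cells had 61 and 105 reads (log2 ratio 0.23, or 0.89 with TMM factors). By total reads its interval holds 0 (-0.24 to 0.71). miR-204-5p of the choroid plexus had 304 and 148 reads (-1.60, or -0.93 with TMM factors). miR-7a-5p of neuroendocrine cells had 12005 and 12921 reads, and its direction turned from -0.45 to 0.21 with TMM factors. miR-124, miR-143, miR-145, miR-211, miR-133a, miR-375 and miR-122, the last being the liver list, had no entry in the reference table and were not counted. By its own counts of these libraries, the paper describes miR-145 as downregulated with age and miR-375 as one of its most downregulated miRNAs. It calls miR-124 strongly represented. The 1 member counted here therefore does not stand for the vascular or the neuroendocrine list. The part of cell composition in the results for miR-9 and miR-9* was not tested.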

How the data were processed

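The measurements were small RNA reads from whole brain, 1 library per age. The authors trimmed adapters, aligned the reads to mm9 with SOAP (version not given in the sources used here), merged reads of the same sequence and deposited the raw count of each tag. Counts were scaled by total reads, 4523267 young and 6658732 old, with 0.5 in place of 0 for ratios.

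Each strand was found through its 2 counts in the study's list of known miRNAs, and tags with the same first 18 nucleotides were added. Mature starts came from RefSeq (GRCm38.p6), hairpin positions from NCBIM37. Tests were the random sampling model that DEGseq uses, coded from the published formula, exact binomial tests and Fisher's exact test, all two-sided, with exact binomial, Wilson and Wald intervals. A quasi-likelihood fit in edgeR needs replicates and was not made. The named tags were the 5 most read of each strand and those with at least 1% of its reads in a library; the other named miRNAs were the 3 starts nearest in log2 ratio to each strand, with at least 100 reads in both libraries, and the marker lists. The members and lists were chosen with earlier results of these data known. The comparison of 5′ starts over all starts and the single substitutions were added later, with the data in view, and a limit of 10 percentage points tried for the former was dropped, because it had been chosen with the value of miR-9* in view. The statistics were tested on simulated counts that hold Poisson counting error alone, as the tests assume. This could not check them against spread between mice or PCR copies. Alternatives were other depths (including edgeR's TMM and DESeq2's size factors), GC correction, other tests and other ways to choose tags. Python 3.11.15, numpy 2.4.6, scipy 1.17.1, pysam 0.24.0, matplotlib 3.10.9, R 4.3.3, edgeR 4.0.16 and DESeq2 1.42.0 were used.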

Additional observations from a re-analysis of the deposited data

Results flagged for a closer look

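Reads with an undetermined base in the first 18 nucleotides that otherwise match a strand are outside the comparisons, and their numbers were above the 3 reads that a count of 0 allows. For miR-9 there were 886 in the young and 195 in the old library, 786 and 100 of them at position 2 alone. For miR-9* there were 66 in the young and 66 in the old library. They make up 4.26% and 0.970% of such miR-9 reads and 3.56% and 1.06% of such miR-9* reads, and over all tags 4.57% of young and 1.07% of old reads hold an undetermined base.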

How the results depend on the processing

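The strand ratio was higher in the old library under all 7 alternatives, with log2 changes from 1.45 to 1.80. The log2 ratio of miR-9* was positive under all 16, from 0.69 to 1.89, and missed 0.05 in edgeR's exact test only at an assumed coefficient of variation of 0.4 (log2 ratio 1.23, p = 0.146). That of miR-9 was reversed with TMM factors (0.10) and DESeq2's size factors (0.088), which are computed from the starts themselves, and kept its value of -0.56 but missed 0.05 in edgeR's exact test at coefficients of 0.2 (p = 0.175) and 0.4 (p = 0.504); the other 12 of 16 kept direction and call. Counting tags with undetermined bases (chosen after seeing the data) gave -0.61 for miR-9 and 1.19 for miR-9*. The share of the counted tag in miR-9* was 0.63 percentage points lower in the old library (-0.63) and 0.57 higher among tags that match a hairpin throughout, both within counting error. Starts changed 2-fold in either direction made up 33.5%, and 18.96% with TMM factors and 18.96% with size factors, for which the cause was not tested; those higher in the old library made up 5.66% with no minimum of reads. Tags of a few reads have wide intervals, and nothing here measures the spread between mice.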
